A study of Homo sapiens with 12 samples.

Results

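RNA that sedimented with several ribosomes was compared with RNA that sedimented with a single ribosome in CBFB knockout MCF10A cells. MCF10A is a human breast epithelial line that forms no tumours, and the CBFB_KO cells carry a CRISPR deletion of CBFB, the partner subunit of the RUNX transcription factors. The comparison used 2 libraries labelled CBFB_KO poly and 2 labelled CBFB_KO mono, 4 of the 12 libraries of the series, and these 4 were chosen by their labels alone. The cells were below passage 20, were treated with cycloheximide to hold ribosomes on their mRNAs, and were lysed and spun through a linear sucrose gradient. All 4 libraries share that treatment and the knockout. The study selected knockout cells as single-cell colonies, so a KO line derives from 1 cell; which colony was used is not given in the labels. Unedited cells (WT, same treatment) supplied 2 mono and 2 poly libraries for the comparison between genotypes, and the free fraction was not used.

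An mRNA under active translation usually carries several ribosomes at once and sediments as a polysome, whereas an mRNA that is rarely initiated, or whose coding region has room for few ribosomes, sediments as a monosome. The poly to mono ratio of an mRNA therefore follows both how often translation starts on it and how long its coding region is. Ribosomal protein and elongation factor mRNAs begin with a 5′ terminal oligopyrimidine (TOP) tract, a run of C and T letters at the first transcribed bases that lets growth signals set their translation as a group. Sequencing compares shares of a library, so every change below is relative to the rest of the same library and gives no amount of RNA per cell.

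The start sites of 4 RNAs that were lower in the poly fraction and 3 that were higher are shown as chosen examples with and without a TOP-like motif. They do not stand for all genes, and SNHG19 is a noncoding RNA. Each line gives 10 bases before and 15 bases from the RefSeq start (GRCh38.p14), 5′ to 3′ on the strand of the gene, with the motif CTTTT, or its close relatives CTTTC or else the letters CTCTT, in capitals where present. A motif counted in this window need not begin at the first transcribed base, and in RPL41 most of its bases lie before the RefSeq start.

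TPT1, chr13:45341169-45341193, minus strand: ctgagtcggcCTTTTccgcccgctc

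EEF1A1, chr6:73521018-73521042, minus strand: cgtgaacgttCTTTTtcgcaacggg

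RPL41, chr12:56116623-56116647, plus strand: cttcgcCTTTCtctcggccttagcg

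SNHG19, chr16:2155344-2155368, minus strand: ccgcccctgtCTTTTcggggtcgag

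HSPA9, chr5:138575387-138575411, minus strand: ggaggtttccagaagcgctgccgcc

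HNRNPU, chr1:244864529-244864553, minus strand: gctcctgcgagaggacgttgcgtgc

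PGK1, chrX:78104238-78104262, plus strand: cccgcgcggtgttccgcattctgca

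The other sequence shown is the coding region of RPL41, since it has room for very few ribosomes. It spans chr12:56116788-56117524 on the plus strand (GRCh38, GENCODE 29), 78 bases spliced from 3 exons and 25 codons before the stop, with the start and stop codons in capitals.

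RPL41 coding region: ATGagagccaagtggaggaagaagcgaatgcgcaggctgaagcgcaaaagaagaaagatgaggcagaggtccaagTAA

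The 4 libraries held 44916672 to 52763888 expected counts, the estimated number of reads per gene that RSEM gives. The 2 poly libraries were far closer to each other than any other pair of the series: the SD of their log2 difference across genes was 0.136, against 0.52 for the mono pair. The mean chi-square of a gene's counts between the 2 poly libraries was 2.21, above the value of 1 that sampling alone would give, and between 118.5 and 901.5 in the other pairs. The labels do not say that replicates came from separate cultures, so p-values measure the spread between these libraries, which may be technical, and the poly pair may not be 2 independent samples. The counts below are therefore also given with the poly pair summed and counted as 1 sample, in a fit of 3 libraries whose spread comes from the mono pair, and poly is assumed to vary like mono. Basal mammary markers were present: 9 of 12 were at 1 TPM (transcripts per 1000000) or more in all 4 libraries. Of the blood cell markers 5 of 6 were under 1 TPM in all 4 libraries, with CD14 the exception, and of the fibroblast markers 6 of 7. The summed level of the basal list was 754.7 to 1013 TPM in mono and 5506 to 5542 TPM in poly. Luminal markers were present in part, with 3 of 9, KRT8, KRT18 and ERBB3, at 1 TPM or more in all 4 libraries. The summed level of the luminal list was 134 to 164 TPM in mono and 531 to 536 TPM in poly. In the fit below 27.3% of all genes tested were higher in poly. Of the basal markers 11 of 12 (91.7%) were higher, with ITGA6 the highest at a log2 difference of 3.37 and SFN the lowest at 0.89. Of 7 luminal markers tested 2 were higher (28.6%, near the share of all genes), KRT8 and KRT18. With the poly pair as 1 sample these counts were 9 and 1. The few blood and fibroblast markers tested, CD14, COL1A1 and PDGFRB, were higher as well, but PDGFRB was close to the floor, at 0.045 and 0 CPM (counts per 1000000 after TMM, a scaling by library composition) in mono and 0.26 and 0.37 in poly, and had an adjusted p of 0.22 with the poly pair as 1 sample.

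CBFB itself was measured first, as the edited gene. It stood at 5.80 and 4.29 CPM in the CBFB_KO mono libraries and at 4.78 and 5.33 in the poly libraries, fitted with the WT libraries. In WT it stood at 9.53 and 7.61 in mono and at 7.40 and 9.26 in poly, so all 4 CBFB_KO values lay below all 4 WT values, and CBFB RNA remained detectable in the knockout. Gene counts do not show the edited bases. Between the fractions of the knockout CBFB did not pass the test, with a log2 difference of -0.02 ± 0.22 (SE, n = 2 a side, adjusted p = 0.93). RUNX2, at 0 and 0.03 CPM in mono and 0.22 and 0.17 in poly, passed at an adjusted p of 0.045 but at 0.30 with the poly pair as 1 sample.

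In CBFB_KO cells, mRNAs for chaperones, glycolytic enzymes, basement membrane proteins, keratins and RNA-binding hnRNPs were mostly higher in the poly fraction. Ribosomal protein mRNAs, mitochondrial transcripts and snoRNA host genes were mostly lower. So were most lincRNA, antisense and processed transcript genes in the fit of 4 libraries, but not with the poly pair also counted as 1 sample. Of 14643 genes tested, 3991 were higher and 3591 lower in poly at an adjusted p under 0.05 (edgeR quasi-likelihood test, Benjamini-Hochberg), which is 27.3% and 24.5% of all genes tested. Among them, 3353 were at least 2-fold higher and 2907 at least 2-fold lower. Called both in this fit and in the fit of 3 libraries with the poly pair as 1 sample, which tested 15584 genes, were 2177 higher and 1187 lower, 14.9% and 8.11% of the 14643. Leaving out poly replicate 1 gave 2081 higher and 1200 lower, poly replicate 2 2061 and 1258, mono replicate 1 6593 and 5814, and mono replicate 2 6419 and 5905; without a mono library the spread rests on the close poly pair alone. List counts below are to be read against the shares of all genes tested, 27.3% higher and 24.5% lower. Those given with the poly pair as 1 sample are to be read against the smaller shares called in both fits. The median log2 difference over all genes was 0.14. Scaling by library total alone, without TMM factors, moved that median up by 0.75 and the split of calls from 52.6% to 78.9% higher, with 6183 higher and 1651 lower.

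Before any model, the shares of reads already separated the fractions. Cytosolic ribosomal protein genes took 29.8% and 34.0% of the counts in the 2 mono libraries and 18.5% in each poly library. Mitochondrially encoded RNAs took 4.57% and 7.05% in mono and 1.60% and 1.59% in poly. Glycolytic enzymes rose the other way, from 0.658% and 0.554% in mono to 2.45% and 2.43% in poly, and keratins and epidermal genes from 0.637% and 0.521% to 2.68% and 2.73%. The mono and poly values of these 4 lists did not overlap; single genes did not overlap in 81.0% of the 14643 tested.

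**Figure D1:**
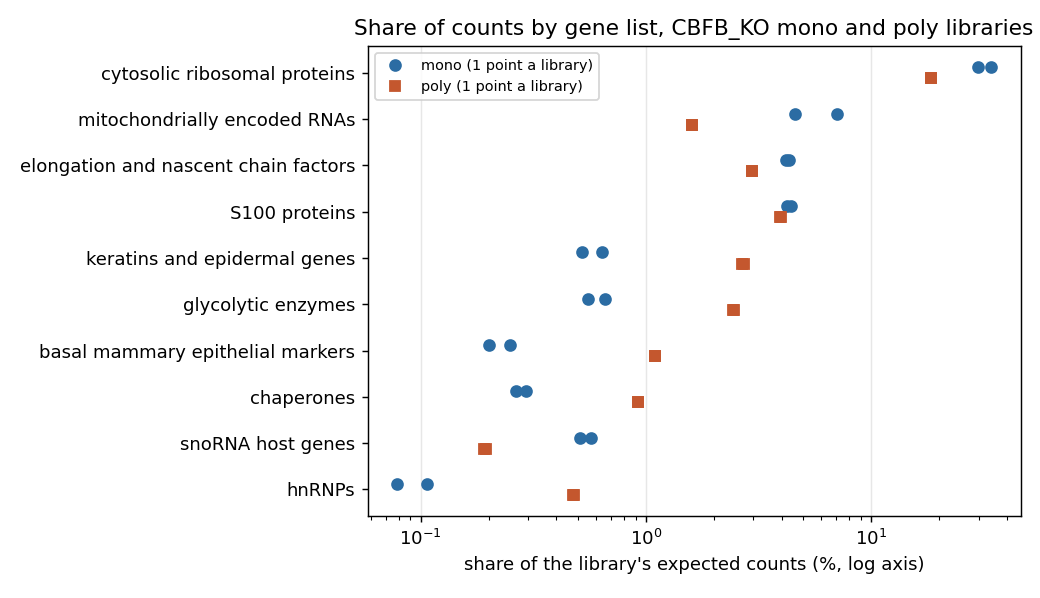
Share of each library's expected counts taken by 10 gene lists (x axis, percent, log scale), with 1 point for each of the 2 mono and 2 poly CBFB_KO libraries. The ribosomal protein points lie at 29.8% and 34.0% in mono and at 18.5% in poly, and the hnRNP points at 0.107% and 0.0787% in mono and 0.473% and 0.479% in poly.

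Protein-coding and noncoding genes parted. Of 12395 protein-coding genes tested, 3838 were higher and 2514 lower, with a median log2 difference of 0.33. Of 361 lincRNA genes, 8 were higher and 217 lower (median -1.67), and of 619 antisense genes, 26 were higher and 335 lower (median -1.49). Processed transcripts gave 1 higher and 78 lower of 125 (1 and 35 with the poly pair as 1 sample). Pseudogenes were lower less often: 168 of 362 processed pseudogenes (46.4%), with 23 higher, and 81 of 165 transcribed unprocessed pseudogenes (49.1%), with 5 higher. Without TMM factors the medians of lincRNA and antisense genes were still below 0, at -0.90 and -0.72. With the poly pair also counted as 1 sample, 84 lincRNA and 137 antisense genes stayed lower. Whether counting used strand is not given in the sources used here, so reads of an antisense gene and its partner may be mixed.

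The most extreme noncoding RNA was RPS6KB2-AS1, at 11.6 and 13.2 CPM in mono and at 0 counts in both poly libraries, which makes it at least 253-fold lower against a floor of 3 counts per library. MVP-DT, a divergent transcript beside MVP, stood at 35.9 and 56.6 CPM in mono and at 4.04 and 3.06 in poly, a log2 difference of -3.70 ± 0.33 (adjusted p = 0.0040). MIR4458HG, a microRNA host gene, fell by 3.63 on the log2 scale. These 3 were taken from RNAs whose mono and poly libraries did not overlap. Among noncoding genes with a mean of at least 5 CPM, the highest in poly were the pseudogenes ANXA2P2 (log2 2.64) and LDHAP4 (2.31), whose reads can be shared with ANXA2 and LDHA, followed by GSTT2, KRT87P and DHFRP1 at 1.21, 1.10 and 0.91. GSTT2, KRT87P and DHFRP1 lost their call with the poly pair as 1 sample.

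Host genes of small nucleolar RNAs (snoRNAs), spliced RNAs whose introns hold the snoRNAs and most of which encode no known protein, were lower in 17 of 18 cases and higher in 0, with a median of -1.76 (all genes: 0.14). SNHG19, whose start site is shown above, stood at 104 and 151 CPM in mono and 11.2 and 8.88 in poly. GAS5, the most abundant host gene by CPM, stood at 1561 and 2025 CPM in mono and at 382 and 373 in poly, a log2 difference of -2.25 ± 0.17 (adjusted p = 0.0038). Counted with the poly pair as 1 sample, 12 of the 18 were lower. A list of long noncoding RNAs labelled as nuclear had 6 members tested, and where they lay in these cells was not measured. JPX (-3.18), NEAT1 (-2.84), SNHG14 and PVT1 (-1.61) were lower, TUG1 was higher at 2.14, and MALAT1 was not called. SNHG14 did not pass with the poly pair as 1 sample (adjusted p = 0.058).

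Ribosomal protein mRNAs, which encode the building blocks of the cytosolic ribosome, were lower in poly in 78 of 83 cases and higher in 0. Their median log2 difference was -1.59 ± 0.26 (SD over the 4 pairings of a poly with a mono library), against 0.14 for all genes. Of all genes tested, 24.5% were lower. The ± of other list medians is the same SD, while that of single genes is an SE. The pairings share libraries and the poly pair was nearly alike, so the SD reflects mainly the 2 mono libraries. RPL41 was the lowest, at 14040 and 19611 CPM in mono and 2287 and 2242 in poly (log2 -2.89 ± 0.20, adjusted p = 0.0038). RPS2, the most abundant by CPM, stood at 15225 and 18312 in mono and 5225 and 5211 in poly, 1.68 lower on the log2 scale. Members not called included RPL5, FAU, RPL3 and RPL14. RPL3 was at 3426 and 3402 CPM in mono and 4021 and 4047 in poly. The number lower was 63 of 83 with the poly pair as 1 sample. Ribosomal protein genes have many processed pseudogenes, so reads may be split between copies.

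The other TOP mRNAs followed in part. Their list also holds the initiation factors EIF4B, EIF3E, EIF3F, EIF3H, EIF3K and EIF3L. Of its members 55.6% were lower, against 24.5% of all genes tested. Of 18 genes for elongation factors, nascent chain factors and related TOP-containing mRNAs, 10 were lower and 0 higher (7 lower with the poly pair as 1 sample), with a median of -0.65 that became 0.12 without TMM factors. TPT1, which encodes the translationally controlled tumour protein TCTP, stood at 8371 and 13700 CPM in mono and at 1204 and 1224 in poly, 9.09-fold lower in poly (log2 -3.18 ± 0.28, adjusted p = 0.0040). EEF1A1, the factor that brings charged tRNAs to the ribosome, fell from 19442 and 23453 CPM to 8069 and 7960 (log2 -1.42 ± 0.13). EEF2, the factor that moves the ribosome along the mRNA, gave 3622 and 1217 CPM in mono and 2762 and 2765 in poly, and its poly values lay between the mono values. EIF3K was the highest of the list at 0.28 ± 0.12 and was not called (adjusted p = 0.11).

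A motif shown in capitals above was present on the gene strand, in the same 25 bases, for 51 of 67 ribosomal protein genes that had a RefSeq start (76.1%). It was present for 10 of 12 matched genes of the list of elongation factors, nascent chain factors and related TOP mRNAs (83.3%). Both lists were made of mRNAs known to carry TOP tracts, so a high share in them followed from that choice and is not an independent result. Among all 27305 genes with a RefSeq start the share was 11.4%, and on the other strand it was 8.20%. It was 5.88% of 17 glycolytic enzymes, 14.8% of 27 chaperones and 17.4% of 23 hnRNP genes, lists with most members higher in poly, but also 27.3% of 22 laminin, integrin and matrix genes, which were higher too. Among lists that were lower it was 38.5% of 26 replication-dependent histones, and 6 of 15 snoRNA host genes had a motif. The motifs were chosen with these sequences in view and can overlap one another. Outside the ribosomal proteins, 1141 protein-coding genes with a motif had a median log2 difference of 0.27, near the 0.36 of 8829 genes without one.

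Transcript length ran through the whole comparison. Protein-coding genes were divided into deciles, groups of equal number, by the transcript length that the files give. This length was averaged over the 4 libraries. For some genes it lay below the longest coding length in GENCODE 29, as for DROSHA at 1079 against 4122 bases, so their decile is uncertain. The shortest decile, 207 to 948 bases, had a median log2 difference of -1.18 in the fit, and of -1.25 to -0.90 in the 4 pairings of a poly with a mono library (log2 of CPM + 0.25), with 2.98% of its genes higher and 65.4% lower in poly. The longest decile, from 4522 bases, had a median of 1.30 in the fit and of 1.09 to 1.18 in the pairings, with 55.9% higher and 1.37% lower. The medians rose in each step between them, from -0.58 in the next to shortest decile to 1.02 in the next to longest. Deciles of coding length, from 12338 genes with a coding sequence in GENCODE 29, ran from -1.24 to 1.14. Across the 12395 genes Spearman's rho of log2 difference with transcript length was 0.50, a description across genes that share the same 4 libraries. With the poly pair also counted as 1 sample, 29.03% of the shortest decile were lower and 32.8% of the longest decile higher.

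**Figure D2:**
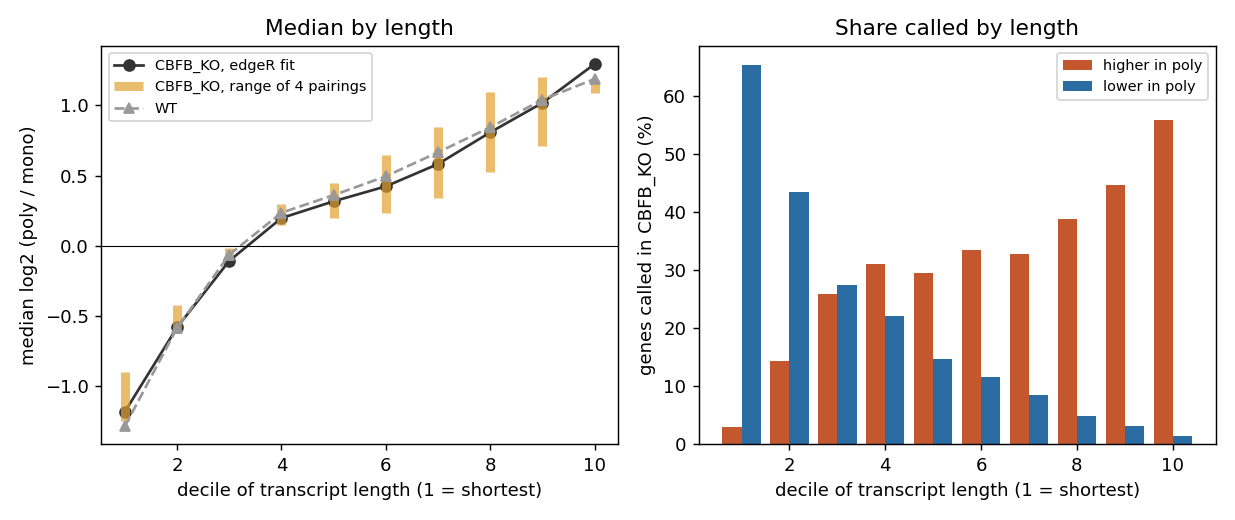
Left, median log2 ratio of poly to mono (y axis) in deciles of transcript length (x axis) for CBFB_KO and WT in the edgeR fits, with bars for the range of the 4 pairings of CBFB_KO libraries, from log2 of CPM + 0.25; right, percent of genes called higher or lower in CBFB_KO in each decile. The fitted CBFB_KO medians run from -1.18 in the shortest decile to 1.30 in the longest, and the share called lower from 65.4% to 1.37%.

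Several of the lowest protein-coding genes with a mean of at least 5 CPM had short mRNAs. SMIM27, which encodes a small membrane protein, stood at 27.8 and 35.1 CPM in mono and 2.93 and 2.54 in poly (log2 -3.52 ± 0.22), with a transcript length of 482 bases. LSM10, a subunit of the U7 small nuclear ribonucleoprotein that processes histone mRNA ends, stood at 579 and 656 CPM in mono and at 67.8 and 70.1 in poly, and COPS9, a subunit of the COP9 signalosome, at 540 and 758 against 87.0 and 83.4. OAZ3, KRT10-AS1, BPGM and MAP3K13 completed the lowest group with log2 differences of -3.17 to -2.94. BPGM and MAP3K13 were not short, with transcript lengths of 1757 and 1722 bases in the fourth decile. Relative to the median of that decile each was at -3.14. The longest coding length of MAP3K13 was 2898 bases, above its transcript length, so its decile is uncertain. KRT10-AS1 is counted as protein-coding in GENCODE 29 but overlaps KRT10 on the other strand, so its value is uncertain.

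At a mean of at least 5 CPM the highest was HNRNPUL2-BSCL2, a read-through gene that shares exons with HNRNPUL2 and BSCL2 and is therefore uncertain, at 0 and 0.40 CPM in mono and 19.3 and 16.4 in poly. APP, the amyloid precursor protein, stood at 5.49 and 6.46 CPM in mono and 126 and 124 in poly, a log2 difference of 4.39 ± 0.18 (adjusted p = 0.0038) that stayed called with the poly pair as 1 sample. SERINC1, a membrane protein, gave 4.25, and GFM1, a mitochondrial elongation factor encoded in the nucleus, 4.02. CRIM1, OAT and ATP6V1A reached 3.66 to 3.67. These genes were taken from those whose poly and mono libraries did not overlap.

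**Figure D3:**
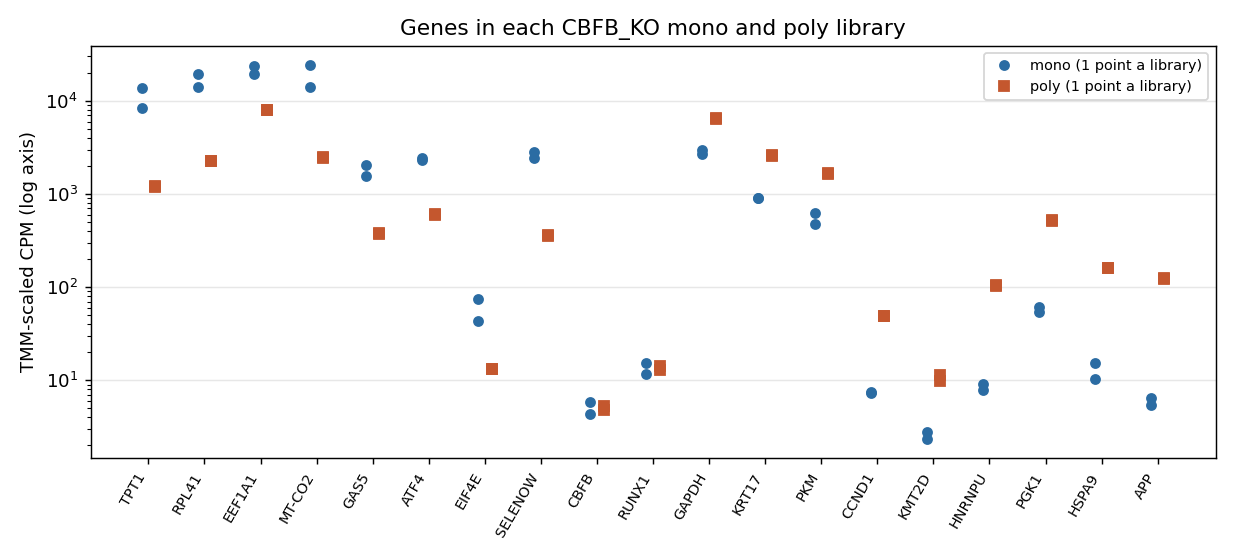
CPM scaled by TMM (y axis, log scale) of 19 genes in each of the 2 mono and 2 poly CBFB_KO libraries, 1 point a library. TPT1 falls from 8371 and 13700 in mono to 1204 and 1224 in poly, HSPA9 rises from 10.3 and 15.4 to 162 in both, and CBFB and RUNX1 overlap between fractions.

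Chaperones, which fold new proteins, had the highest median of the large lists. Of 29, 25 were higher and 1 lower, with a median of 2.42 ± 0.15. That is 86.2% and 3.45%, against 27.3% and 24.5% of all genes tested. HSPA9, the mitochondrial HSP70, stood at 10.3 and 15.4 CPM in mono and at 162 in both poly libraries (log2 3.66 ± 0.26, adjusted p = 0.0038). HSPA5, the HSP70 of the endoplasmic reticulum, gave 8.13 and 15.6 in mono against 135 and 137 in poly, and HSP90AB1 gave 87.1 and 98.7 against 898 and 882. The exception was HSPB1, a small heat shock protein, at -0.73 ± 0.21 (adjusted p = 0.044), which was 0.06 without TMM factors. As 1 sample, the poly pair left 24 higher.

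Glycolytic enzymes were higher in 15 of 17 cases, all 15 also with the poly pair as 1 sample, with a median of 1.60. The share higher was 88.2%, against 27.3% of all genes tested. PGK1, which makes ATP in glycolysis, stood at 61.5 and 53.7 CPM in mono and 532 and 517 in poly (log2 3.19 ± 0.14, adjusted p = 0.0038). GAPDH, often used as a reference gene, stood at 2665 and 2964 in mono and 6527 and 6430 in poly (log2 1.20 ± 0.11). TPI1 was the 1 enzyme called lower, at -0.42 ± 0.10, and it turned to 0.34 without TMM factors.

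The hnRNPs, nuclear RNA-binding proteins, were higher in 19 of 23 cases, 16 with the poly pair as 1 sample, and lower in 0 (median 1.63). The share of hnRNPs higher was 82.6%, against 27.3% of all genes tested. HNRNPU was the highest, from 7.95 and 9.06 CPM in mono to 103 and 105 in poly. HNRNPK, a protein that binds runs of C in RNA, stood at 47.8 and 54.4 in mono and 282 and 284 in poly, a log2 difference of 2.47 ± 0.14 (adjusted p = 0.0038). HNRNPDL was the lowest at 0.32 ± 0.22 and was not called. The SR splicing factors were more mixed, with 6 of 12 higher and 2 lower (3 and 0 with the poly pair as 1 sample). As shares these SR factors were 50.0% higher and 16.7% lower, against 27.3% and 24.5% of all genes. The 2 lower were SRSF10 (-0.87) and SRSF9 (-0.64), and SRSF9 turned to 0.12 without TMM factors.

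Basement membrane and keratin genes were mostly higher in poly, and S100 genes mostly lower. The shares higher were 92.9% of the laminin, integrin and matrix genes and 73.3% of keratins and epidermal genes, against 27.3% of all genes. The share of S100 genes lower was 91.7%, against 24.5%. Of 28 laminin, integrin and matrix genes, which build the basement membrane and its receptors, 26 were higher and 0 lower, with a median of 1.85. ITGAV gave the highest value at 3.43, and ITGA5 was not called, with mono libraries far apart at 74.0 and 17.6 CPM and poly libraries at 72.3 and 70.6. Counted with the poly pair as 1 sample, 18 were higher. Keratins and epidermal genes were higher in 22 of 30 cases and lower in 4 (20 and 1 with the poly pair as 1 sample). KRT5, a basal keratin, stood at 680 and 621 CPM in mono and 2807 and 2760 in poly, and DSG3, a desmosomal cadherin, had a log2 difference of 3.43. The 4 lower members were SPRR2A, SPRR1B, SPRR1A and CALML5, small proteins of the cornified envelope and a calmodulin-like protein. SPRR2A stood at 0.82 and 1.25 CPM in mono and 0.24 and 0.17 in poly. The S100 proteins, small calcium-binding proteins of the same epithelium, were lower in 11 of 12 cases, with a median of -1.13, but in 3 with the poly pair as 1 sample. S100A2 stood at 23125 and 30344 CPM in mono and 14769 and 14447 in poly. S100A14, the member nearest 0 at -0.33, turned to 0.44 without TMM factors.

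Within the translation machinery the lists differed. Of the cytosolic aminoacyl-tRNA synthetases 80.0% were higher, and of the initiation factors 45.5%, against 27.3% of all genes tested. The share of initiation factors lower was 15.2%, against 24.5% of all genes. EIF4B, EIF3E, EIF3F, EIF3H, EIF3K and EIF3L are initiation factors too, but were counted with the other TOP mRNAs above and not here. Cytosolic aminoacyl-tRNA synthetases, which charge tRNAs, were higher in 16 of 20 cases and lower in 0, with a median of 1.73 (12 higher with the poly pair as 1 sample). NARS1 gave 1.66 and 3.03 CPM in mono and 23.7 and 24.6 in poly. Initiation factors divided, with 15 of 33 higher and 5 lower (median 0.63), or 8 and 2 with the poly pair as 1 sample. EIF3A, the largest subunit of eIF3, was the highest at 3.13 ± 0.29, from 1.25 and 2.02 CPM to at most 14.3. EIF4E, the protein that binds the mRNA cap, was the lowest at -2.17 ± 0.31 (adjusted p = 0.0081), from 43.7 and 75.4 CPM in mono to 13.2 and 13.3 in poly. EIF4EBP1, the repressor of eIF4E, was also lower, at -1.49 ± 0.17. Both passed with the poly pair as 1 sample (adjusted p = 0.021 and 0.032).

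Genes with known regulation of their translation were examined next. Among 12 stress mRNAs with upstream open reading frames, short reading frames before the main one, 5 were lower and 1 higher (2 and 1 with the poly pair as 1 sample). ATF4, a transcription factor of the integrated stress response, stood at 2300 and 2418 CPM in mono and 608 and 599 in poly (log2 -1.97 ± 0.11, adjusted p = 0.0038). DDIT3, which encodes the stress factor CHOP, stood at 39.7 and 53.5 against 12.6 and 12.1. EIF2AK4, the kinase GCN2 that acts upstream of ATF4, was the 1 higher member at 1.60. Selenoproteins, in which a UGA codon is read as selenocysteine, gave 8 lower and 4 higher of 16 (4 and 1 with the poly pair as 1 sample). SELENOW stood at 2420 and 2823 CPM in mono and 360 and 358 in poly (log2 -2.87 ± 0.14), and TXNRD1, a thioredoxin reductase, gave the highest value at 1.80. Of 10 polyamine and ferritin genes, 7 were lower (2 with the poly pair as 1 sample), led by SAT1 at -1.81, and AZIN1, the antizyme inhibitor, was higher at 1.16, with an adjusted p of 0.085 when the poly pair counted as 1 sample.

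Mitochondrial genes separated by where they are encoded. Of 15 RNAs from the mitochondrial genome, which are translated by mitochondrial ribosomes, 13 were lower and 0 higher, with a median of -2.96 ± 0.63, and all 13 stayed lower with the poly pair as 1 sample. MT-CO2 stood at 14145 and 24489 CPM in mono and 2502 and 2459 in poly. MT-RNR1, a mitochondrial ribosomal RNA, was not called at -0.81 ± 0.26 (adjusted p = 0.059). Of 77 nuclear-encoded subunits of the respiratory chain, 39 were lower and 13 higher (15 and 10 with the poly pair as 1 sample). The lower ones were led by small accessory subunits such as NDUFC1 (-2.65) and ATP5ME (-2.39), and the higher ones by large subunits such as NDUFS1 (2.55) and ATP5F1B (1.99), the catalytic beta subunit of ATP synthase. Mitochondrial ribosomal proteins gave 29 lower and 14 higher of 76 (6 and 5 with the poly pair as 1 sample). Lower were 50.6% of the respiratory chain subunits and 38.2% of the mitochondrial ribosomal proteins, and higher were 16.9% and 18.4%. Of all genes tested 24.5% were lower and 27.3% higher. With the poly pair as 1 sample, the share of mitochondrial ribosomal proteins lower was near that of all genes called lower in both fits. The medians of the 2 lists, -0.64 and -0.35, turned to 0.14 and 0.42 without TMM factors. Relative to genes of the same decile of transcript length the 2 medians were 0.32 and 0.33.

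The same subtraction of the median of each length decile changed the lists unequally. It places genes by the transcript length, which for some lay below their coding length. Chaperones kept 2.15 of their 2.42, hnRNPs 1.62 of 1.63 and glycolytic enzymes 1.20 of 1.60. The mitochondrially encoded RNAs kept -2.28 of -2.96, whereas ribosomal proteins kept -0.49 of -1.59 and S100 proteins came to 0.00. The proteasome, whose 36 tested subunits gave 21 higher and 4 lower (15 and 1 with the poly pair as 1 sample), went from 0.86 to 1.42. Its shares of 58.3% higher and 11.1% lower stood against 27.3% and 24.5% of all genes. PSMD1, the largest subunit of the 19S cap of the proteasome, was the highest at 3.66, and PSMB10, a subunit of the immunoproteasome, the lowest at -1.86.

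**Figure D4:**
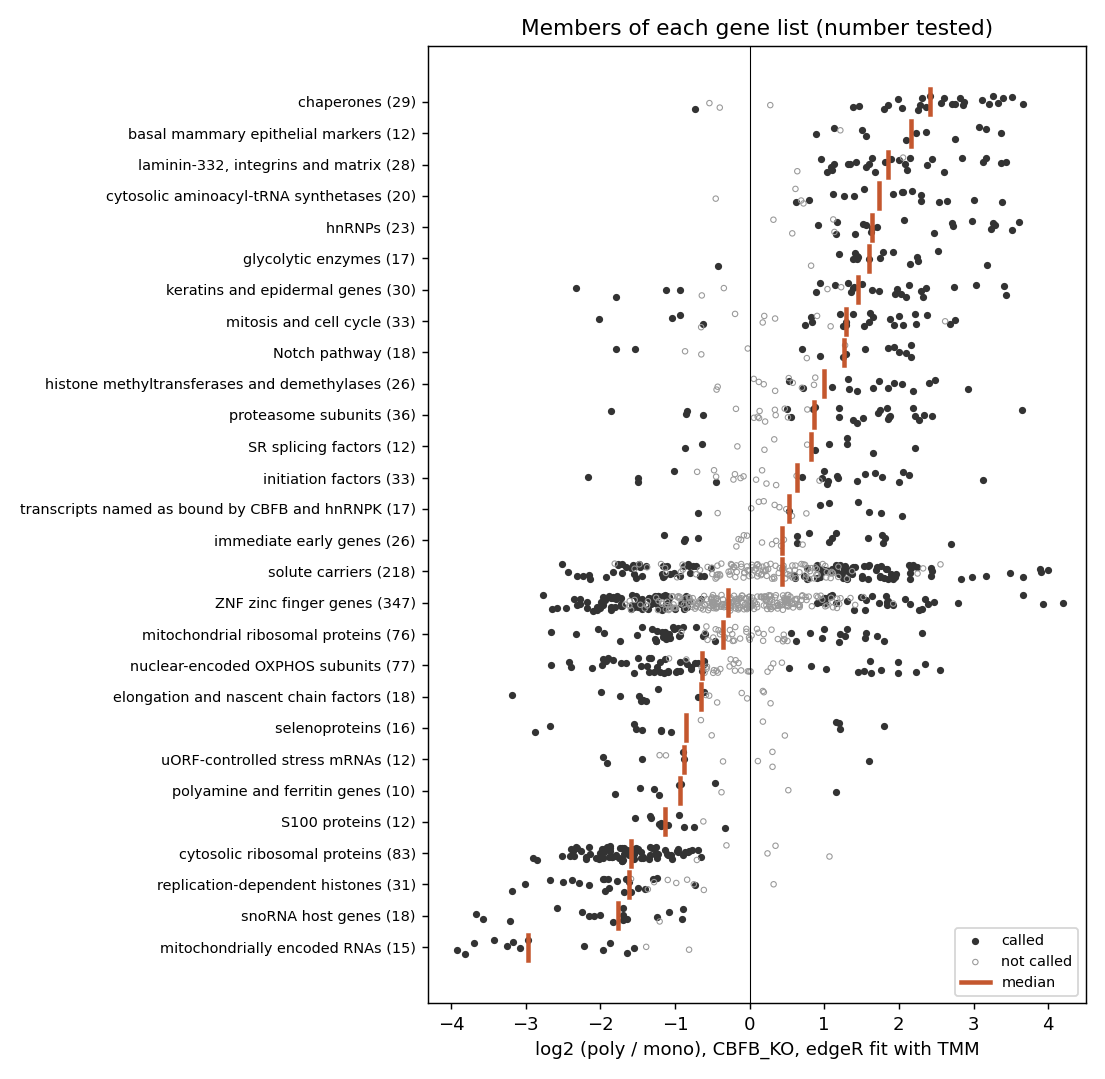
Log2 ratio of poly to mono in CBFB_KO (x axis) for each tested member of the gene lists with at least 10 tested members, filled where called and open where not, with the median of each list as a bar and the number tested in brackets. Medians run from -2.96 for mitochondrially encoded RNAs to 2.42 for chaperones; ZNF440, at 6.31, lies outside the axis.

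Cell cycle genes and histone-modifying enzymes had more members higher than lower, and replication-dependent histones the reverse. Of all genes tested 27.3% were higher and 24.5% lower in poly. Against these, 63.6% of the cell cycle genes were higher and 12.1% lower, and 57.7% of the histone-modifying enzymes were higher. The share of replication-dependent histones lower was 71.0%. Of 33 cell cycle genes 21 were higher and 4 lower (15 and 1 with the poly pair as 1 sample). CCND1, which encodes cyclin D1, stood at 7.47 and 7.25 CPM in mono and at 49.6 in both poly libraries (log2 2.75 ± 0.15), and BIRC5, which encodes survivin, stood at 952 and 944 in mono and 235 and 233 in poly (-2.02 ± 0.11). Of 26 histone methyltransferases and demethylases, 15 were higher and 0 lower (7 and 0 with the poly pair as 1 sample), led by KDM1A at 2.93. Replication-dependent histones, whose mRNAs normally end without a poly(A) tail, were lower in 22 of 31 cases and higher in 0, with 9 lower when the poly pair counted as 1 sample. The labels name an mRNA kit, whereas the methods of the study describe removal of rRNA for RNAseq and do not say whether that covers these fractions, so how RNAs without a tail were recovered is uncertain. H2BC12 stood at 110 and 142 CPM in mono and 33.8 and 32.1 in poly.

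Transcription factors with zinc fingers and membrane transporters were spread on both sides. Of 347 ZNF genes 79 were lower and 32 higher (14 and 9 with the poly pair as 1 sample), with a median of -0.28 that became 0.47 without TMM factors. The share of ZNF genes lower, 22.8%, was near the 24.5% of all genes, and the share higher was 9.22% against 27.3%. ZNF749 was the lowest at -2.77. The highest, ZNF440, was at 0 counts in both mono libraries and at 0.21 and 0.19 CPM in poly. That made it at least 2.45-fold higher against a floor of 3 counts per library. Of 218 solute carriers 66 were higher and 39 lower (39 and 11 with the poly pair as 1 sample). These shares of 30.3% and 17.9% were near the 27.3% and 24.5% of all genes. SLC25A51, a mitochondrial carrier of NAD, had the lowest value at -2.51. Immediate early genes gave 11 higher and 4 lower of 26 (6 and 0 with the poly pair as 1 sample), from DUSP6, a phosphatase of ERK, at 2.69 to JUND at -1.14. Of 18 Notch pathway genes, 11 were higher and 2 lower (7 and 1 with the poly pair as 1 sample), from NUMB at 2.17 to DLL3 at -1.79. The shares higher were 42.3% of the immediate early genes and 61.1% of the Notch pathway genes, against 27.3% of all genes. The shares lower were 15.4% and 11.1%, against 24.5%. The receptor NOTCH3 stood at 19.3 and 19.03 CPM in mono and 56.8 and 55.1 in poly.

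The transcripts that the study names as bound by CBFB and hnRNPK were tested one by one. RUNX1, the DNA-binding partner of CBFB, stood at 15.2 and 11.7 CPM in mono and 13.01 and 14.3 in poly, so the fractions overlapped, with a log2 difference of 0.02 ± 0.20 (adjusted p = 0.93). Of the 17 transcripts, RUNX1 included, 7 were higher, 1 lower and 9 not called, which is 4 higher and 0 lower with the poly pair as 1 sample. In the main fit 41.2% of these transcripts were higher and 5.88% lower, against 27.3% and 24.5% of all genes. The median of the 17 transcripts was 0.53, and -0.09 relative to genes of the same length decile. The list was chosen by the study and is not independent evidence of a direction.

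KMT2D, a histone methyltransferase with one of the longest coding regions, was the highest, from 2.79 and 2.33 CPM in mono to 11.3 and 9.84 in poly (log2 2.04 ± 0.20). DROSHA, the nuclease that starts microRNA processing, gave 1.76 ± 0.34, PKM, a pyruvate kinase, 1.60 ± 0.17, and SUFU, a repressor of Hedgehog signalling, 1.45 ± 0.28, and these 4 held with the poly pair as 1 sample. NUMBL (0.94) and SETD1A (0.53) were among those that did not hold under it. FOSL1, a subunit of AP-1, was the 1 lower transcript, at 176 and 152 CPM in mono and 104 and 98.5 in poly (-0.69 ± 0.15, adjusted p = 0.020), and turned to 0.06 without TMM factors. KDM6B, KMT2B, SETD1B, TCF7, RELA, GATA3, TGFB1 and GSK3A were not called, with log2 differences from -0.43 to 0.76.

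Unedited cells gave much the same picture from separate libraries. In WT, 2519 of 14853 genes were higher and 2092 lower in poly, 17.0% and 14.1% of those tested. Without TMM factors they were 4715 and 797, and with the replicate number as a block 4034 were higher. Without WT poly replicate 2 the counts were 721 and 588, and without WT poly replicate 1 the number lower was 651. Of the 7433 genes called in CBFB_KO that were tested in WT, 98.9% had the same direction there, against 90.9% of the 14199 genes tested in both. The 4171 genes called in the same direction in both genotypes were 55.0% of those called in CBFB_KO and 90.5% of those called in WT, and 0 were called in opposite directions. Pearson's r of the log2 differences was 0.86 across genes. The list medians in WT were -1.86 for ribosomal proteins, 2.78 for chaperones and -3.33 for mitochondrially encoded RNAs. RUNX1 in WT was at -0.12 and CBFB at -0.06, neither of them called.

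The test of the difference itself, CBFB_KO minus WT over the 8 libraries, called 0 of 15584 genes (0%) in edgeR at an adjusted p under 0.05. At an unadjusted p under 0.05 it had 291 genes, 1.87% of those tested, and limma voom had 104. With no differences at all, evenly spread p-values would put a share of 0.05 under that limit. The share in edgeR was lower, for a reason that was not tested. DESeq2 called 4 and had 311 at an unadjusted p under 0.05. The smallest adjusted p was 0.40, for ENSG00000250264, a gene with no symbol in the tables used, which was at 0 in both CBFB_KO mono libraries and at 7.32 and 3.96 CPM in the poly libraries, while in WT it stood at 2.75 and 2.40 in mono and 5.32 and 6.12 in poly. The next was GTF2IP4, a pseudogene of a multicopy family and so uncertain, at an adjusted p of 0.99999. It stood at 2.90 and 1.40 CPM in mono and 0.47 and 0.92 in poly in CBFB_KO, and at 0 in both mono libraries and 0.47 and 0.66 in poly in WT. The third, ENSG00000267875, was also at an adjusted p of 0.99999 and was at 0 in both WT poly libraries. An interaction that misses the threshold with 2 libraries per group does not show that the genotypes were alike.

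**Figure D5:**
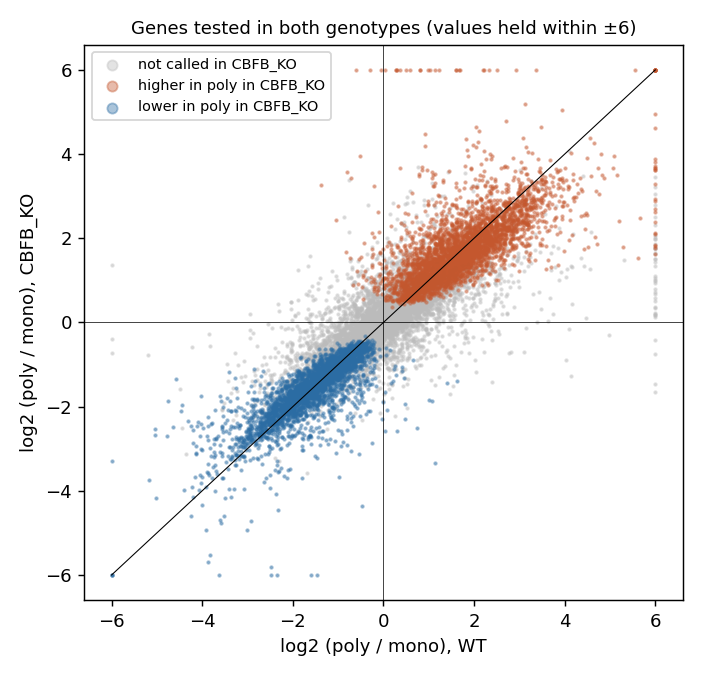
Log2 ratio of poly to mono in CBFB_KO (y axis) against WT (x axis) for the 14199 genes tested in both, 1 point a gene, coloured by the call in CBFB_KO, with the diagonal drawn and values beyond 6 held at 6. Called genes lie on the same side of 0 in both genotypes in 98.9% of cases, and 0 were called in opposite directions.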

How the data were processed

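RNA was extracted from sucrose gradient fractions and sequenced on a NextSeq 500. The labels name a TruSeq mRNA kit; the methods of the study describe rRNA removal for RNAseq, with another instrument. The submitters' processing notes name Trimmomatic, STAR, RSEM and hg19; versions and annotation are not given in the sources used here. Each deposited table gives, for 56632 genes, an expected count (reads assigned by RSEM, unscaled) and a TPM value, which the authors' RSEM run corrected for length and depth. TPM was used to compare markers alone. FPKM columns and gene names typed beside some tables were not used.

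Expected counts were rounded, filtered with filterByExpr, scaled by TMM and tested with edgeR 4.0.16 (glmQLFit, glmQLFTest; R 4.3.3) on the 4 CBFB_KO mono and poly libraries, with Benjamini-Hochberg adjustment over all genes tested and 0.05 as threshold. SE is the log2 difference divided by the square root of F. WT was fitted on its own 4 libraries and the interaction on 8. DESeq2 1.42.0 and limma 3.58.1 were alternatives. Scripts were checked on simulated data. With a simulated poly pair almost identical and a variable mono pair, the edgeR fit had low power and slightly too many p-values under 0.05. At these depths 3 counts are 5.7e-06 to 6.7e-06 percent of a library; this covers counting error only.

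Symbols matched 49995 genes from an identifier table and more through GENCODE 29 or transcript identifiers, and 5908 had none. With no protein table at hand, the transcript length in the files stood in for protein length, and coding length came from GENCODE 29.

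Genes were named by rule. From genes with an adjusted p under 0.05, libraries that did not overlap and a mean of at least 5 CPM, the 8 highest and 8 lowest protein-coding and the 5 highest and 5 lowest other genes were taken, with mitochondrially encoded genes left to their list. From each of 33 gene lists the highest, lowest and most abundant member were taken, then the transcripts named by the study, GAPDH and CBFB, and the 3 genes with the smallest adjusted p in the interaction. Other genes in the text were chosen after their values were seen. The comparison, the lists and the tests were chosen with earlier results of these data known. Some genes that the rule names are not reported here.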

Additional observations from a re-analysis of the deposited data

How the results depend on the processing

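Other scalings, tools and filters were compared with the fit reported. Without TMM factors 6183 genes were higher and 1651 lower in poly, and the medians of the shortest and longest deciles of transcript length were -0.405 and 2.05; by coding length the longest decile was at 1.14. With the poly pair as 1 sample 2219 genes were higher and 1197 lower of 15584 tested, with the call required in both fits 2177 and 1187, and with all 12 libraries in 1 fit 1335 and 1409. Leaving out 1 library gave 2061 to 6593 higher and 1200 to 5905 lower; without either mono library the spread comes from the close poly pair alone. Size factors, DESeq2, voom, either filter on low counts, the 8-library fit and leaving out mitochondrially encoded genes kept both counts within 1.5 times. The interaction called 4 genes in DESeq2 and 22 without a filter on low counts, and 0 in the other settings. In WT, 4715 genes were higher and 797 lower without TMM factors, and 4034 higher with the replicate block.

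In CBFB_KO the correlation of the replicate differences of mono and poly was 0.037. The 2 poly libraries were nearly alike, so this value cannot tell whether the replicate numbers pair the libraries. In WT the correlation was 0.41, and with 2 replicates this does not show that the numbers pair the libraries. With the replicate block 4040 genes were higher and 3144 lower, and the interaction called 0.

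Without TMM factors the medians turned to 0.115 for elongation and nascent chain factors, 0.145 for nuclear-encoded OXPHOS subunits, 0.42 for mitochondrial ribosomal proteins and 0.467 for ZNF genes, and single genes turned to 0.344 (TPI1), 0.058 (HSPB1), 0.124 (SRSF9), 0.438 (S100A14) and 0.063 (FOSL1). Relative to the same decile of length the medians turned to 0.321 (nuclear-encoded OXPHOS), 0.325 (mitochondrial ribosomal proteins), -0.124 (solute carriers), -0.161 (immediate early genes) and -0.091 (transcripts named by the study). The cause of these changes was not tested. With the poly pair as 1 sample 27 of the 132 named genes compared lost their call.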
